A study of Homo sapiens with 3 samples.

Results

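Mitochondrial transcription and RNA turnover genes were examined in H660 cells treated with an HSP70 inhibitor. They were 10 nuclear genes taken by symbol from a table of 58735 genes: POLRMT, TFAM, TFB2M, TEFM, LRPPRC, SLIRP, PNPT1, SUPV3L1, MTPAP and POLG. All 10 were found, each in 1 row, and all 10 passed the filter on low values. NCI-H660 is an established human neuroendocrine prostate cancer line, recorded here as parental, and JG231 acts on the chaperone HSP70 at an allosteric site. The 3 libraries came from cells given the vehicle DMSO, JG231 at 2.5 µM or JG231 at 5 µM, where the unit of the doses and the treatment time of 24 h are those of the study's methods. With 1 library per condition there was no replicate, so no SD and no p-value could be given, and every difference compares these libraries.

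The libraries held 16.1 M, 20.4 M and 24.1 M fragments (DMSO, 2.5 µM and 5 µM), as read from the steps of the values, while the number of genes above 0 went the other way, from 21862 to 19352 and 17293. The part of this difference in the results was not tested. The 6 neuroendocrine markers lay between 3.40 and 307.9 FPKM (fragments per kilobase of exon and per M fragments), whereas the luminal marker KLK2 was listed at 0 in all 3 libraries and TMPRSS2 did not pass 0.315 FPKM, although the records name the cell type as prostatic adenocarcinoma. Of 6 stromal and immune markers, CD3E, PTPRC and PECAM1 were listed at 0 in all 3 libraries, and the highest was COL1A1, a collagen gene, at 0.823, 0.745 and 1.27 FPKM. Their part in the results was not tested.

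The mitochondrial genome is copied into long RNAs from both DNA strands by POLRMT, a single-subunit RNA polymerase of the phage type. TFAM bends and packages the DNA, TFB2M opens the promoter, and TEFM keeps the polymerase moving along the template. POLG is the catalytic subunit of the polymerase that replicates the mitochondrial DNA. The long RNAs are cut into rRNAs, tRNAs and mRNAs, most of the mRNAs receive a poly(A) tail from MTPAP, and LRPPRC with its small partner SLIRP binds and stabilises them. SUPV3L1, an RNA helicase, and PNPT1, polynucleotide phosphorylase, together form the degradosome of the matrix.

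The promoter windows of 6 of the genes are shown because NRF1 and GABP are known to drive genes of this kind and the transcripts of NRF1 and of a GABP subunit were higher after JG231, as described further on. Each stretch of 150 bases is RefSeq sequence on GRCh38.p14, read 5′ to 3′ along the gene, from 120 bases before its RefSeq start. Capitals mark the NRF1 motif (GCGCA, any base N, then GCGC) or its core GCATGCGC, and the GABP (ETS) motif CCGGAAG, on either strand. The core lies inside the longer motif where N is T, and it was chosen after the windows had been seen.
POLRMT, chr19:633508-633657, minus strand: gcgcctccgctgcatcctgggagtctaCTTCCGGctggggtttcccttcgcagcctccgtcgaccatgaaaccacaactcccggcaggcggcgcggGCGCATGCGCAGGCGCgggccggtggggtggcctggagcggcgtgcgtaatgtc
TFAM, chr10:58385290-58385439, plus strand: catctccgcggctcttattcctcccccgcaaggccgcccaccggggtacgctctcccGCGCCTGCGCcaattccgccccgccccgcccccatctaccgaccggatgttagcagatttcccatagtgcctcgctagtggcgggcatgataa
TFB2M, chr1:246566232-246566381, minus strand: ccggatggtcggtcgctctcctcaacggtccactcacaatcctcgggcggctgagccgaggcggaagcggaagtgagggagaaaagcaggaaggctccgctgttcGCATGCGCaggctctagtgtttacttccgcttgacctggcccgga
MTPAP, chr10:30349249-30349398, minus strand: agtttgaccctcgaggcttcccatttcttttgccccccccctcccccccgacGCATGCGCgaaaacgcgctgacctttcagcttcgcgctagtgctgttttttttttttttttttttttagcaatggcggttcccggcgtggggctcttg
TEFM, chr17:30906209-30906358, minus strand: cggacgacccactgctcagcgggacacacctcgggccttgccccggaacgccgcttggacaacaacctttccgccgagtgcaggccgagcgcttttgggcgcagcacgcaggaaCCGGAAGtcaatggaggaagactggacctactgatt
SLIRP, chr14:77707983-77708132, plus strand: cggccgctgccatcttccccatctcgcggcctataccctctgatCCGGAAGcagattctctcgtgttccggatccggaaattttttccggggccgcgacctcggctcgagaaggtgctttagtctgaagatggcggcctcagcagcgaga
Over the full windows of 300 bases, the longer NRF1 motif was found in POLRMT and TFAM, 2 of 10 genes, against 8.60% of 15345 protein-coding windows. Its core was found in 3 of 10, POLRMT, TFB2M and MTPAP, against 4.25% of the windows. The GABP motif was found in 3 of 10, POLRMT, TEFM and SLIRP, against 14.4%, and a GC box, GGGCGG, in 5 of 10, against 59.2%. None of the 4 motifs was in the windows of LRPPRC and SUPV3L1, and only the GC box was in those of PNPT1 and POLG. A match is a description of the letters and does not show that a factor bound there. The part of NRF1 and GABP in the changes of these genes was not tested.

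The 10 genes were moderately expressed and unequal in level. In DMSO their values ran from 4.43 FPKM for TEFM to 20.7 for POLRMT, a span of 4.68-fold, which became 10.7-fold at 2.5 µM and 9.78-fold at 5 µM. Each value was a whole number of fragments divided by a length that was the same in all 3 libraries, and only 1 such length was found for each gene, between 1848 and 9760 bp. Between 181 fragments (TEFM at 2.5 µM) and 3499 (POLRMT at 5 µM) stood behind a value. The length was above that of the GENCODE canonical transcript in all 10 genes, and the annotation behind it is not given in the sources used here. SLIRP, whose canonical mRNA of 376 bp was divided by 2631 bp, was in the middle of the order by FPKM in DMSO and the highest by fragments per kilobase of canonical transcript, at 92.9 per M fragments, followed by POLRMT at 28.2 on the same scale.

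**Figure D1:**
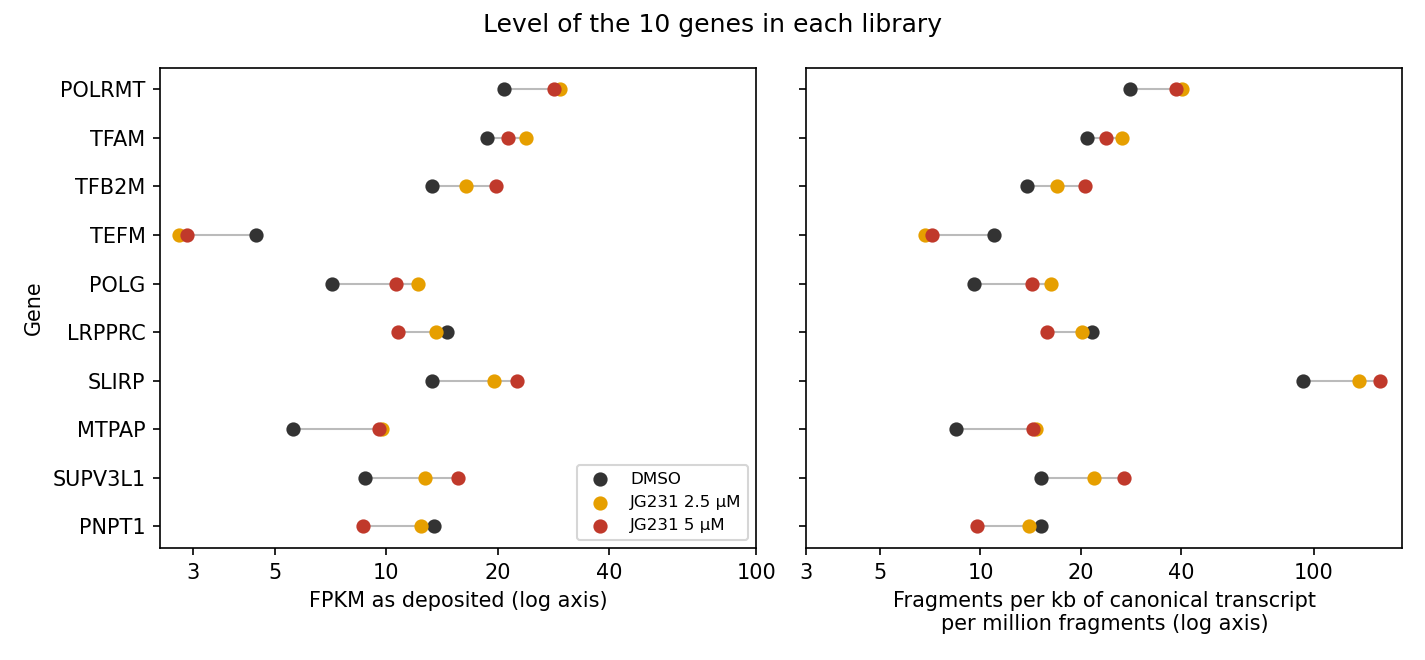
Level of the 10 genes in the 3 libraries, 1 point per library, as FPKM (left) and per kilobase of canonical transcript (right), both on log axes. TEFM, LRPPRC and PNPT1 have their DMSO point on the right of both JG231 points, and SLIRP moves from the middle of the order to the top when its canonical length is used.

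More of the genes were higher than lower after JG231 in the values as deposited. The fold rule followed the study's methods, with expression over 1 and a log2 change beyond 0.25, where the change is the log2 of the ratio of FPKM + 0.1. The methods do not name the library for the first limit, so FPKM over 1 in either library was used here. Genes at 0 in 1 library were kept, as in the methods. By this rule 7 of 10 were higher at 2.5 µM and 1 was lower, against 36.4% and 43.4% of the 15746 genes tested. At 5 µM 6 were higher and 3 lower, against 36.5% and 45.1% of 15765 genes. The median change of the 10 was 0.43 at 2.5 µM and 0.51 at 5 µM, beside 0.00 and -0.01 over the 13785 genes whose mean FPKM was 1 or more. As deposited, no gene of the 10 passed a log2 change of 1, which 12.9% of genes did upwards and 21.7% downwards at 2.5 µM, and 14.7% and 24.3% at 5 µM. When the libraries were rescaled to an equal sum without mitochondrial and small RNA genes, which moved the median of all genes to -0.28 and -0.38, only 3 were higher and 3 lower at each dose, and the median was 0.14 and 0.13. With the trend of change with transcript length removed, 5 were higher and 1 lower at 2.5 µM, 5 and 2 at 5 µM, and the median was 0.24 and 0.31. Among the 7583 genes whose mean FPKM was 5 or more, 48.0% were higher and 26.1% lower at 2.5 µM, and 48.8% and 27.4% at 5 µM, beside 7 and 0 of 9 and 6 and 2 of 9 for the genes described here. Fewer cells and less RNA per cell cannot be told apart in these bulk libraries.

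POLRMT, TFAM and TFB2M were higher at 2.5 µM, TFAM within the fold rule at 5 µM, and the elongation factor TEFM was lower. POLRMT had 20.7 FPKM in DMSO, 29.5 at 2.5 µM and 28.4 at 5 µM, so that both treated libraries were above the vehicle and close to each other. Its log2 change was 0.51 (95% counting interval 0.42 to 0.60) at 2.5 µM and 0.45 (0.37 to 0.54) at 5 µM, and with the rescaling 0.21 and 0.07, inside the fold rule. These exact binomial intervals concern counting error only, with no variation between cultures or preparations, as there was 1 library per condition. They may be too narrow even for that, since amplified fragments are not independent molecules. As a yardstick of single genes, the robust SD of the log2 difference between the 2 JG231 libraries, whose doses differ, was 0.25 over the 500 genes closest to POLRMT in mean level.

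TFAM had 18.7, 23.9 and 21.4 FPKM in the same order of libraries, highest at the lower dose. Its change of 0.35 at 2.5 µM was past the fold rule and that of 0.19 at 5 µM was not, and with the rescaling they became 0.06 and -0.19. With the length trend removed they were 0.45 and 0.40, both past the rule. TFB2M, which melts the promoter DNA, had 13.3, 16.4 and 19.8 FPKM and was highest at the higher dose, with changes of 0.30 (0.12 to 0.49) and 0.57 (0.40 to 0.75). Both were inside the fold rule with the length trend removed, at 0.05 and 0.23, and with the rescaling, at 0.01 and 0.19. TEFM had 4.43, 2.76 and 2.90 FPKM, the lowest level of the 10 in every library, and both treated libraries lay under DMSO. Its changes of -0.67 (-0.98 to -0.40) and -0.60 (-0.88 to -0.34) were larger than its yardstick of 0.49, the widest of the 10. TEFM was lower under every scaling and pseudocount tried, from -0.48 at 5 µM with a pseudocount of 1 to -1.07 at 5 µM with a trend of change with transcript length removed.

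POLG (chr15:89305198-89334861, minus strand, 23 exons) had 7.12 FPKM in DMSO, 12.2 at 2.5 µM and 10.6 at 5 µM, changes of 0.76 and 0.57, of which the second was 0.19 with the rescaling, inside the fold rule. Of its exons, 458 bp overlap FANCI on the opposite strand. FANCI went the other way, from 13.7 to 7.69 and 8.51 FPKM. The records describe strand-specific libraries, but no source says if the counting was by strand, so the fragments of such stretches cannot be told apart.

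The partners LRPPRC and SLIRP moved apart. LRPPRC (chr2:43886224-43996226, minus strand, 38 exons) had 14.6, 13.6 and 10.7 FPKM, lowest at 5 µM, with changes of -0.10 (-0.18 to -0.02) and -0.44 (-0.53 to -0.36), of which only the second passed the fold rule, and with the rescaling -0.39 and -0.82, which both passed it. SLIRP had 13.3, 19.5 and 22.5 FPKM, highest at 5 µM, with changes of 0.55 (0.41 to 0.71) and 0.76 (0.62 to 0.91). The pair also differs in length, with canonical transcripts of 6603 and 376 bp. After removal of the trend of change with transcript length over all genes by lowess, LRPPRC was at 0.09 and -0.08 and SLIRP at 0.00 and -0.06, all inside the fold rule. SNW1, whose exons overlap SLIRP by 118 bp on the opposite strand, was also higher, at 33.7, 57.8 and 64.3 FPKM.

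MTPAP, the poly(A) polymerase, had 5.58 FPKM in DMSO, 9.76 at 2.5 µM and 9.52 at 5 µM, and its change of 0.79 (0.68 to 0.93) was the highest of the 10 at the lower dose. With the length trend removed it was 0.92 and 1.02, and with the rescaling 0.50 and 0.38. Its exons share 1626 bp with the pseudogene GOLGA2P6, which was listed at 0. The degradosome genes moved in opposite directions at 5 µM, while PNPT1 was inside the fold rule at 2.5 µM as deposited. The helicase SUPV3L1 (chr10:69180234-69209099, plus strand, 15 exons) had 8.77, 12.7 and 15.6 FPKM, changes of 0.53 (0.39 to 0.68), or 0.24 with the rescaling, and 0.83 (0.70 to 0.97), and its rank among 11200 protein-coding genes went from 4777 in DMSO to 3711 and 3076. PNPT1, the exonuclease (chr2:55634061-55693863, minus strand, 28 exons), had 13.4, 12.4 and 8.62 FPKM, changes of -0.12 (-0.23 to 0.00) and -0.63 (-0.76 to -0.52), or -0.41 and -1.01 with the rescaling, and its rank went from 3144 to 3788 and 4949. A rank within a library does not depend on how the libraries are scaled. With the length trend removed, SUPV3L1 stood at 0.38 and PNPT1 at -0.04 at 2.5 µM, and at 0.63 and -0.48 at 5 µM.

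**Figure D2:**
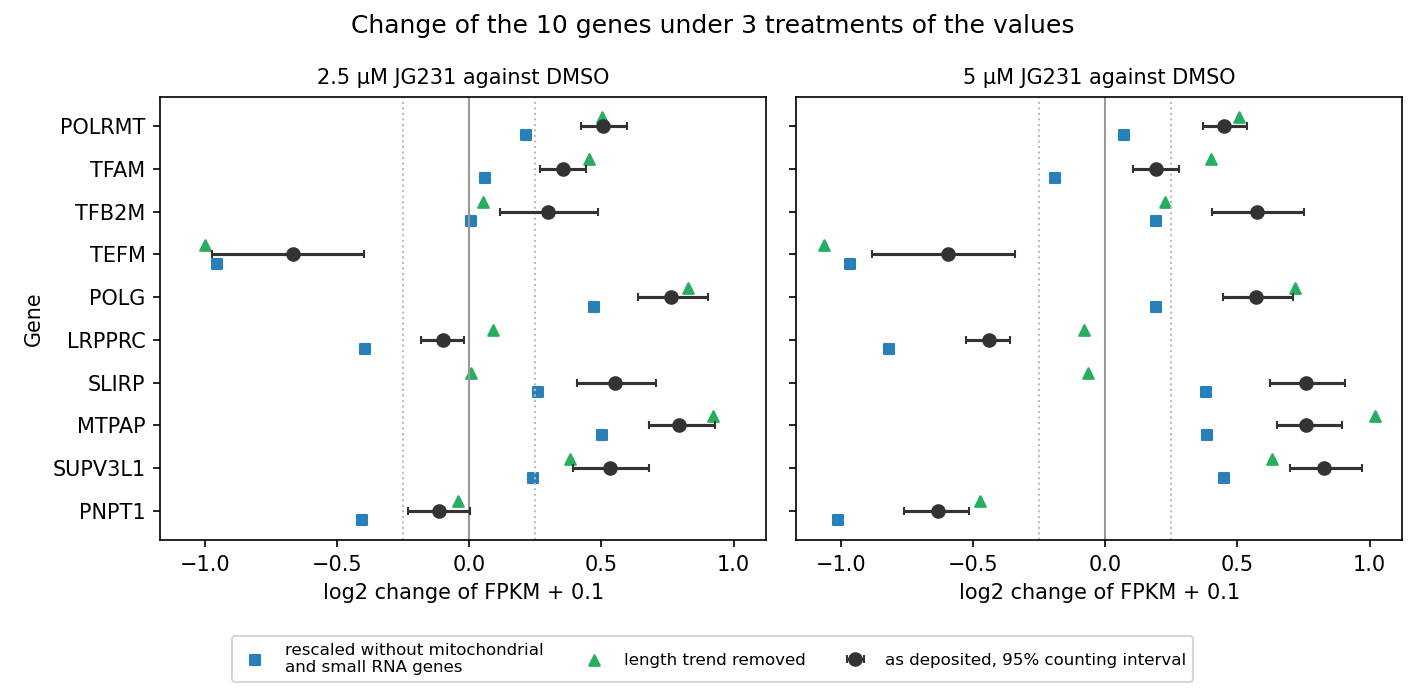
Log2 change of FPKM + 0.1 against DMSO for the 10 genes at 2.5 µM (left) and 5 µM (right), with 95% counting intervals as error bars for the values as deposited; squares are rescaled without mitochondrial and small RNA genes, triangles have the length trend removed, and dotted lines mark 0.25 either way. TEFM stays on the left of 0 in both panels and MTPAP, POLG and SUPV3L1 on the right, while SLIRP is near 0 with the trend removed and PNPT1 and LRPPRC each have their leftmost value with the rescaling.

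Between the treated libraries, a comparison that does not use the DMSO library, 2 genes were higher at 5 µM than at 2.5 µM and 2 were lower, against 26.8% and 30.1% of 14197 genes. TFB2M and SUPV3L1 were higher, by 0.27 and 0.30 on the log2 scale, and LRPPRC and PNPT1 were lower, at -0.34 and -0.52. With the rescaling TFB2M and SUPV3L1 were inside the fold rule, at 0.19 and 0.21, and POLG passed it downwards, at -0.28. With the length trend removed TFB2M and LRPPRC were inside it, at 0.18 and -0.17. PNPT1 passed it under both, at -0.61 and -0.44. None passed a log2 change of 1, which 7.47% of genes did upwards and 8.09% downwards. The counting intervals of POLRMT, MTPAP and TEFM held 0.

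Ratios within a library do not depend on scaling between libraries, though they keep any trend with transcript length. The ratio of SUPV3L1 to PNPT1, taken on FPKM with no pseudocount, was 0.652 in DMSO, 1.02 at 2.5 µM and 1.81 at 5 µM, and per kilobase of canonical transcript it was 0.999, 1.57 and 2.78, about equal in DMSO. Against DMSO the ratio was 1.57-fold (95% counting interval 1.38 to 1.79) and 2.78-fold (2.45 to 3.16). The ratio of SLIRP to LRPPRC went from 0.910 to 1.44 and 2.10, a 2.31-fold difference (2.06 to 2.59) at 5 µM, which the removal of the length trend ends, with both genes then near 0 as given above. MTPAP to PNPT1 went from 0.416 to 0.787 and 1.10. TEFM to POLRMT, elongation factor to polymerase, went from 0.214 to 0.0933 and 0.102, which is 0.436-fold (0.354 to 0.538) and 0.478-fold (0.392 to 0.583). TFAM to POLRMT and TFB2M to POLRMT differed less, with values from 0.752 to 0.901 and from 0.554 to 0.698 over the 3 libraries.

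**Figure D3:**
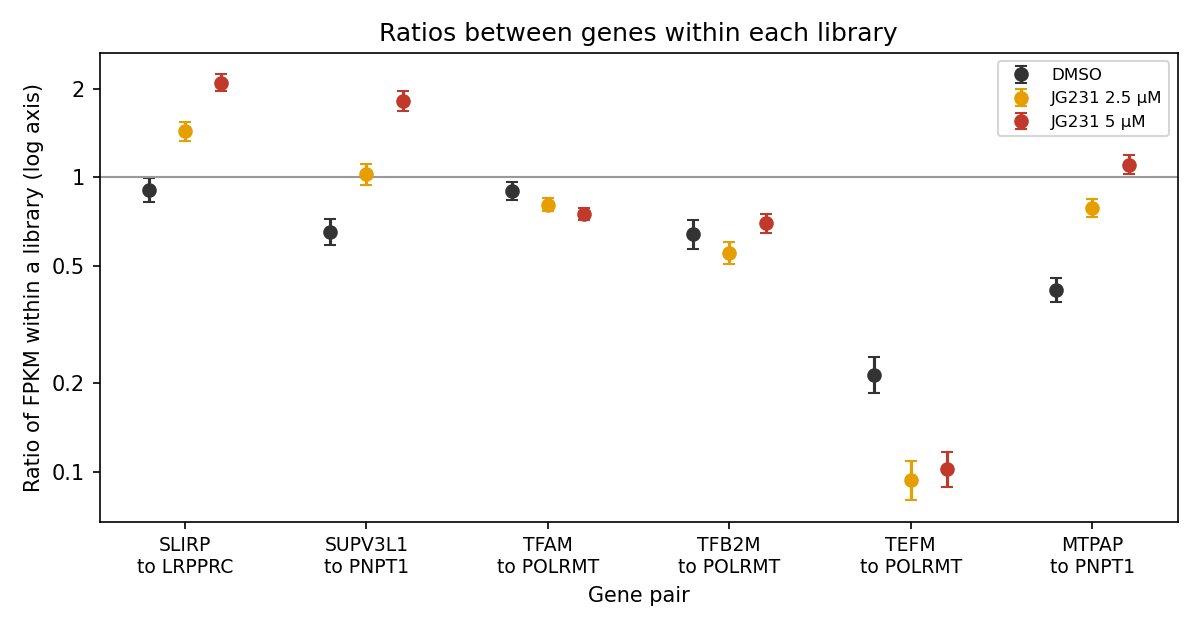
Ratio of FPKM between gene pairs within each library on a log axis, with 95% counting intervals. The ratios of SLIRP to LRPPRC, SUPV3L1 to PNPT1 and MTPAP to PNPT1 stand higher at 5 µM than at 2.5 µM and lowest in DMSO, and that of TEFM to POLRMT is highest in DMSO.

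The RNAs this machinery makes moved far more than its own transcripts. The 13 mitochondrial mRNAs summed to 108277 FPKM in DMSO, 35503 at 2.5 µM and 49253 at 5 µM, and their share of all fragments went from 10.9% to 3.36% and 4.65%. All 13 were past the fold rule downwards at 2.5 µM and 12 of 13 at 5 µM, where MT-ND3 stood at -0.24, with medians of -1.57 and -1.12. The mitochondrial rRNAs, transcribed from the same promoter region as most of the mRNAs, went the other way. MT-RNR1 had 2725, 10793 and 15417 FPKM and MT-RNR2 had 12260, 28642 and 36860, and the ratio of rRNA to mRNA within a library went from 0.138 to 1.11 and 1.06. The lowest mRNA changes were those of MT-ND6, the light-strand mRNA, at -3.88 and -3.63, and MT-ND5, at -3.03 and -2.64. MT-ND6 was at 0.542 of the median of the 12 heavy-strand mRNAs in DMSO and at 0.0972 and 0.0845 after JG231. No source says if the counting was by strand. Fragments of RNA copied from the other strand at MT-ND6 thus cannot be told apart. The paper's methods describe an mRNA-Seq library, and the part of RNA selection in the rRNA and mRNA values was not tested. With the rescaling the medians of the 13 mRNAs were -1.86 and -1.50.

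Read beside those mRNAs, every gene of the 10 had fewer mitochondrial mRNA FPKM for each FPKM of its own after JG231. This follows from the values above and is not a separate result. The summed mRNAs were at 0.328 and 0.455 of DMSO, and the lowest genes at 0.621 (TEFM, 2.5 µM) and 0.642 (PNPT1, 5 µM). The quotient of the summed mRNAs over LRPPRC was 7418 in DMSO, 2611 at 2.5 µM and 4592 at 5 µM, and over PNPT1 it was 8057, 2863 and 5713. For MTPAP it was 19390, 3639 and 5171, and for TEFM, the gene lower at both doses, 24417, 12884 and 16981. As deposited, the quotient was thus nearest to its DMSO value for TEFM at 2.5 µM and for PNPT1 at 5 µM, where these were the lowest changes of the 10. At 5 µM PNPT1, at -0.63, was close to TEFM, at -0.60, and with the length trend removed TEFM was lower, at -1.07 against -0.48. The mRNAs were lowest at 2.5 µM, whereas LRPPRC and PNPT1 were lowest at 5 µM.

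**Figure D4:**
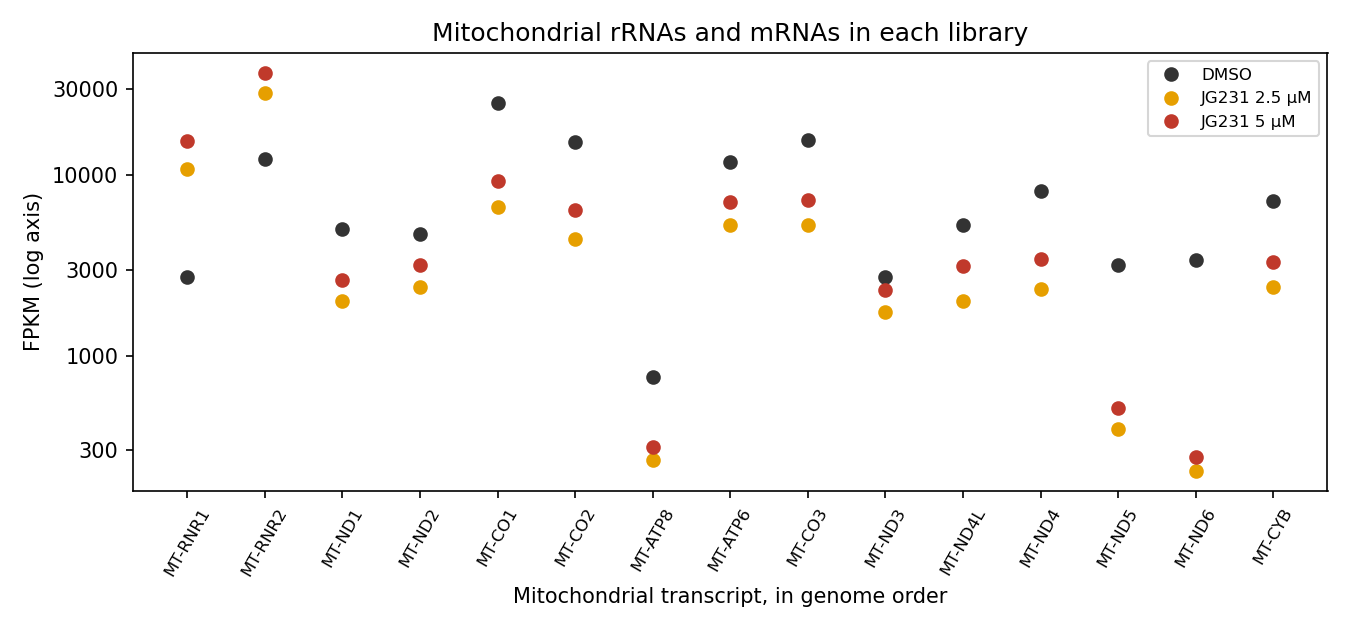
FPKM of the mitochondrial rRNAs and the 13 mRNAs in each library, in genome order on a log axis, 1 point per library. Both rRNAs are above DMSO in the JG231 libraries and all mRNAs are below it, with MT-ND5 and MT-ND6 farthest below.

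The wider machinery of mitochondrial nucleic acids was mixed. Of 61 further genes in 5 lists, all tested, 30 were higher and 12 lower at 2.5 µM, and 30 higher and 15 lower at 5 µM, with medians of 0.24 and 0.25. Over all genes tested the shares were 36.4% higher and 43.4% lower at 2.5 µM, and 36.5% and 45.1% at 5 µM, and the counts of each list below are to be read against these. With the rescaling 16 of the 61 were higher and 23 lower at 2.5 µM and 14 and 25 at 5 µM, and with the length trend removed 25 and 20, and 23 and 20. Among 7 other transcription factors 3 and 2 were higher and 2 and 2 lower at the lower and the higher dose. With the rescaling 1 was higher and 3 were lower at each dose. MRPL12, a ribosomal protein also reported to bind POLRMT, had 5.44, 15.0 and 18.2 FPKM, MTERF4 was at 0.30 and 0.41, and MTERF2 at -0.19 and -0.40. With the rescaling MTERF4 was at 0.02 and 0.05 and MTERF2 at -0.48 and -0.77. With the length trend removed MTERF4 was at 0.01 and 0.02 and MTERF2 at -0.44 and -0.74. Of 15 RNA processing genes 9 were higher and 3 lower at each dose, and with the rescaling 4 and 5 at 2.5 µM and 6 and 4 at 5 µM, with the median going from 0.34 to 0.05 and from 0.56 to 0.18. ERAL1, a GTPase that chaperones the small-subunit rRNA, had log2 changes of 1.12 and 1.31, TBRG4 (FASTKD4) of 0.76 and 1.01, and ELAC2, which cuts the 3′ ends of tRNAs, of 0.78 and 0.96. KIAA0391, the nuclease subunit of mitochondrial RNase P, was chosen after its values were seen and lay under the mean level of the list rule, with 1.53, 0.0633 and 0.571 FPKM.

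Beside SUPV3L1 and PNPT1, the 5 other genes listed for RNA decay gave 2 higher and 0 lower at 2.5 µM, and 3 higher and 1 lower at 5 µM. With the rescaling they gave 1 higher and 2 lower, and 1 higher and 1 lower. REXO2, an exonuclease that clears short RNA ends, had 4.81, 7.83 and 8.10 FPKM, C1QBP 66.3, 77.5 and 95.3, and ANGEL2 7.83, 7.16 and 5.67. Of 23 RNA modification genes 9 and 10 were higher and 6 and 5 lower, and with the rescaling 6 and 4 were higher and 9 and 10 lower. MTO1, a tRNA wobble-uridine modifier, had 1.62, 4.64 and 5.98 FPKM and CDK5RAP1, which methylthiolates tRNA, 8.57, 14.6 and 19.7, while OSGEPL1, of the threonylcarbamoyl step, had 4.09, 2.01 and 1.45. Of 14 DNA replication genes 7 and 6 were higher and 2 and 5 lower, with medians of 0.25 and 0.01. With the rescaling 4 and 2 were higher and 6 and 8 lower. TOP1MT, the mitochondrial topoisomerase, had 3.88, 8.30 and 7.78 FPKM, ENDOG 12.4, 23.2 and 23.1, and RNASEH1, which removes RNA from hybrids with DNA, 6.66, 4.63 and 3.79. With the rescaling, the medians of the transcription factor, replication and modification lists were under 0 at both doses, and that of the decay list was -0.07 and 0.01.

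Of the 9 nuclear regulators of mitochondrial genes, 7 passed the filter on low values, and 6 of the 7 were higher and 1 lower at each dose, against the same shares of all genes, with medians of 0.75 and 0.52. With the rescaling 5 were higher at 2.5 µM and 2 at 5 µM, and 1 was lower at each dose, with medians of 0.46 and 0.14. NRF1, the transcription factor named with the promoter motifs, had 4.82 FPKM in DMSO, 14.5 at 2.5 µM and 14.3 at 5 µM, changes of 1.57 and 1.55. GABPB1, a subunit of GABP, had 4.94, 10.6 and 12.1 FPKM, and YY1 had log2 changes of 0.62 and 0.60. GABPA, another subunit, was at 0.51 and 0.42, or 0.22 and 0.04 with the rescaling, inside the fold rule. GABPB2, under the filter on low values, had 0.501, 0.134 and 0.222 FPKM. Both were named outside the list rule. With the rescaling NRF1 was at 1.28 and 1.17 and GABPB1 at 0.79 and 0.89, while YY1 at 5 µM, at 0.22, was inside the fold rule. Among the genes with an NRF1 motif or its core shown above, POLRMT, TFB2M and MTPAP passed the fold rule upwards at both doses and TFAM at 2.5 µM only, and SUPV3L1, SLIRP and POLG, which have neither, also passed it at both doses. With the length trend removed TFB2M did not pass it and TFAM passed it at both doses, and with the rescaling MTPAP alone of the genes with such a motif stayed past the rule. Of those with neither, SUPV3L1 at 2.5 µM and POLG at 5 µM were inside it with the rescaling, at 0.24 and 0.19. SLIRP was inside it with the length trend removed, at 0.00 and -0.06. Of the genes with the GABP motif, POLRMT and SLIRP passed it upwards and TEFM downwards at both doses as deposited. The part of NRF1 or GABP was not tested.

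**Figure D5:**
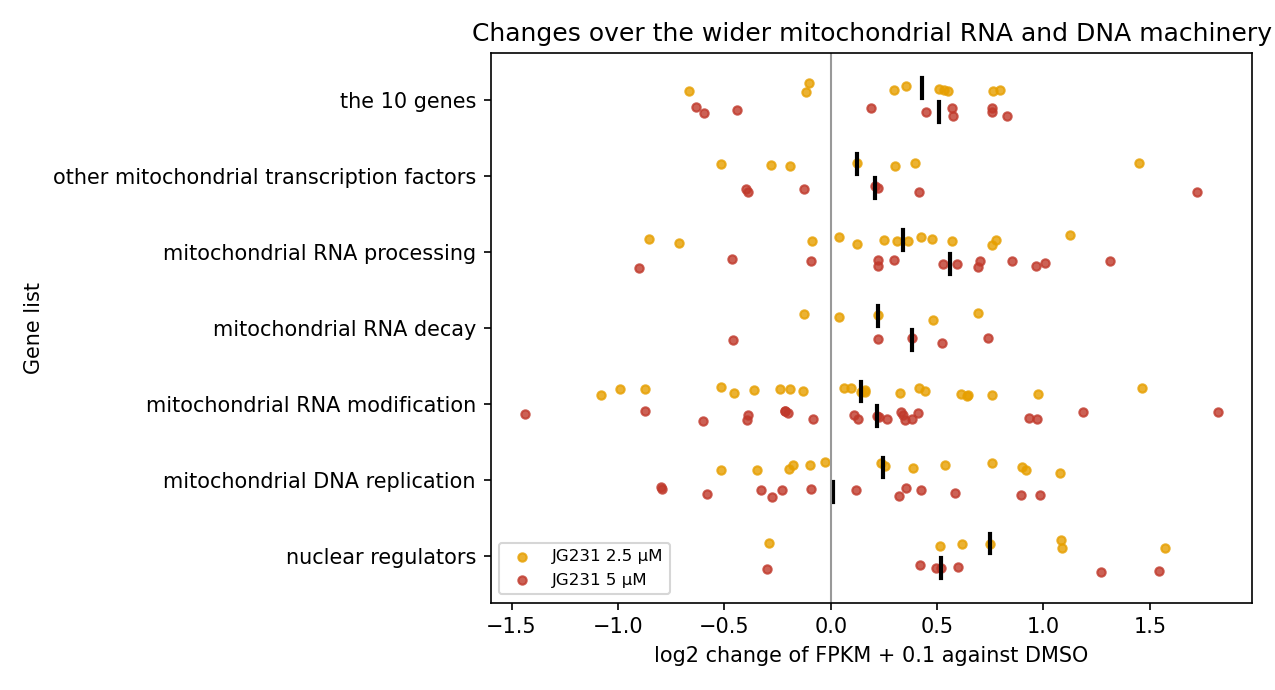
Log2 change of FPKM + 0.1 against DMSO of each gene whose mean FPKM was 1 or more, by list and dose; black bars are medians and vertical scatter within a row has no meaning. The nuclear regulators have the highest median at 2.5 µM, RNA processing genes have the highest at 5 µM, and DNA replication genes at 5 µM centre near 0.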

How the data were processed

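RNA-seq was performed on H660 cells in 3 libraries, DMSO, 2.5 µM and 5 µM JG231, 1 each. Per the paper's methods, HISAT and StringTie were used for alignment and quantification, and the authors deposited 1 FPKM value per gene and library. The submitters' processing notes also name HISAT2, featureCounts and GRCh38. Versions and annotation release are not given in the sources used here. The records give a smaller RNA input than the paper's methods and describe stranded libraries. Genes were annotated by identifier with GENCODE 44 (GRCh38), which matched 58207 of 58735 genes.

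The value of 1 fragment was read from genes with a single transcript, of which 86.3%, 83.4% and 81.7% (under 50 fragments, tolerance 0.01) gave whole fragments in DMSO, 2.5 µM and 5 µM. Whole fragments of the 10 genes were found as the exon length that made all 3 values whole. No count model was applied. Changes used a pseudocount of 0.1 FPKM, and intervals are 95% Clopper-Pearson. Lists of markers and pathways were summarised by counts by the fold rule and by medians of genes whose mean FPKM was 1 or more. From each wider list up to 3 genes with the largest change at 5 µM and the same sign at both doses were named. Members and lists were chosen with earlier results of these data known. Levels per canonical transcript and the NRF1 core motif were added after seeing the data. Other scalings, pseudocounts, filters and a lowess length correction (fraction 0.3) were alternatives. Scripts were tested on simulated data. Computation was in Python 3.11.15 with scipy 1.17.1 and numpy 2.4.6, lowess was from statsmodels 0.14.6, tables were handled in pandas 2.3.3 and plots drawn in matplotlib 3.10.9.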

Additional observations from a re-analysis of the deposited data

How the results depend on the processing

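A value was called near if its distance from the deposited one was less than that from the counting interval's centre to its end. Of 120 values of single genes under the alternatives, 80 were near, 39 were not, and 1 that was past the fold rule changed sign. That value was SLIRP at 5 µM, at -0.064 with the length trend removed; the cause was not tested. Of the values inside the fold rule, TFAM at 5 µM also changed sign, to -0.19 with the rescaling, and LRPPRC at 2.5 µM, to 0.09 with the length trend removed. Rescaling without mitochondrial and small RNA genes left 3 genes higher and 3 lower at 2.5 µM, and 3 higher at 5 µM, moved the median of the 10 at 5 µM to 0.13, and moved the medians of the 13 mitochondrial mRNAs to -1.86 and -1.50. These were -2.01 and -1.70 with the length trend removed. With a mean FPKM of at least 5, TEFM was not tested and 0 genes were lower at 2.5 µM. With a stricter fold rule, a log2 change beyond 1, 0 were higher and 0 lower at 2.5 µM, and 0 and 0 at 5 µM. With the rescaling, the share of higher genes among the genes tested went from 36.4% to 24.5% at 2.5 µM and from 36.5% to 22.9% at 5 µM. That of lower genes went from 43.4% to 56.4% and from 45.1% to 60.2%. Levels per canonical transcript moved all 18 ratios between the genes, but not their fold differences between libraries.

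No paired analysis was possible because each condition has 1 library. Leaving out a library was likewise not possible. The depth limits TEFM most, with 181 to 230 fragments.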
